A study of Mus musculus with 9 samples.

Results

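Immediate-early genes are the first genes that a cell transcribes after a stimulus, from factors it already holds and without new protein. The 10 described here are Fos, Fosb, Jun, Junb and Jund, which encode subunits of the AP-1 transcription factor, Atf3, a stress-responsive relative of them, Egr1, a zinc-finger transcription factor, Ier2, a small nuclear regulator, and 2 genes of feedback, Dusp1 and Zfp36. They were found by symbol in the count files, which list 23238 gene symbols, and all 10 passed the filter on low counts that left 10107 genes for testing. None of the 10 was called in any comparison of brain and blood monocytes. Their levels differed more between libraries of the same blood group than between the means of the groups.

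The libraries were of sorted CD45+ CD11b+ P2ry12- Ly6C+ Ly6G- monocytes of 12-week-old female wild-type C57BL/6N mice, all taken on day 1. Nor_Bl_mono was blood of non-treated mice. NMO_Bl_mono was blood, and NMO_Br_mono brain, of mice that received into 1 striatum 3 µl of NMO-IgG at 50 mg/ml together with 5% human complement. NMO-IgG is patient-derived antibody against aquaporin-4 on astrocytes, used to model neuromyelitis optica, an inflammatory disease of the nervous system. Each group had 3 libraries, and every library was a pool of 5 mice. No monocytes of normal brain and no group with control antibody were among these samples. Brain tissue was digested with enzymes for 30 min at 37 °C and passed through Percoll, whereas blood was separated on a density gradient, so tissue and isolation procedure cannot be told apart in any comparison of brain with blood.

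In a resting cell most of these genes are nearly silent. Growth factors, cytokines, bacterial products and cell stress act through MAP kinases on factors already bound to their promoters, and transcription rises within minutes. Fos proteins pair with Jun proteins to form AP-1, which binds DNA as a dimer. The response shuts itself off: Dusp1 is a phosphatase that removes the activating phosphates from p38 and JNK, and Zfp36, also called tristetraprolin, binds AU-rich stretches in messenger RNAs and hastens their decay. In monocytes and macrophages both restrain cytokine production. Immediate-early genes are also known to rise in cells that are handled, warmed or digested before RNA is taken.

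Total counts per library ranged from 7584649 to 10419647, and Rn45s, a ribosomal RNA entry, took between 28.4% and 43.6% of them. NMO_Bl_mono replicate 3 stood apart: it had 4567 genes with a count, and 22.3% of the genes expressed at 50 CPM or more in both other libraries of its group had 3 counts or fewer in it. In NMO_Br_mono replicate 2 the same share was 8.26%, and in the other 7 libraries it was at most 1.94%. Of 12 monocyte markers all had counts in every group, with summed levels of 6541 to 8633 CPM in Nor_Bl_mono, 4256 to 8213 in NMO_Bl_mono and 4464 to 8595 in NMO_Br_mono. Single markers moved under these sums: against NMO_Bl_mono 5 had no overlap with brain higher and 2 with brain lower. Over all genes tested these shares were 6.3% and 6.05%. Ly6c2, lower in brain, was at 437, 59.4 and 199 CPM in NMO_Br_mono and 662, 739 and 496 in NMO_Bl_mono. Marker sums of other cell types also moved between the groups: microglial markers summed to 781 to 947 CPM in NMO_Br_mono, with all 10 detected, against 143 to 396 in Nor_Bl_mono and 0.0909 to 244 in NMO_Bl_mono, where Tmem119, Gpr34, Olfml3 and Slc2a5 were at 0 in both. Of these markers the paper names Cx3cr1 as shared with monocytes. It was at 544, 297 and 337 CPM in NMO_Br_mono and 322, 254 and 112 in Nor_Bl_mono. P2ry12 overlapped, at 23.7, 69.7 and 9.95 CPM in NMO_Br_mono and 43.4, 35.0 and 0.920 in Nor_Bl_mono. Tmem119 was at 78.4, 0 and 21.0 CPM in NMO_Br_mono. Of 7 microglial markers tested against NMO_Bl_mono, 3 did not overlap, all higher in brain. Neutrophil markers summed to 442 to 1751 CPM in NMO_Br_mono, with Retnlg and Mmp9 at 0, and to at most 298 CPM in a blood library. The list was mixed. S100a8 and S100a9 were at 813 and 660 CPM in NMO_Br_mono replicate 2, the library with the highest sum. Retnlg, at 0 in brain, was at 125, 84.8 and 37.8 CPM in Nor_Bl_mono. Of 6 neutrophil markers tested against NMO_Bl_mono, 2 did not overlap, both higher in brain. The sums of NK cell markers were lower in brain, at 39.9 to 289 CPM in NMO_Br_mono and 1970 to 3165 in blood. So were those of 6 platelet markers, at 0 to 39.8 CPM in NMO_Br_mono, with Gp9 at 0, and 449 to 2882 in blood. Sums of 6 erythroid markers were 1.05 to 402 CPM in NMO_Br_mono and 898 to 5411 in blood. Endothelial markers summed to 115 to 747 CPM in NMO_Br_mono and 5.62 to 116 in blood, where Cldn5 was at 0. In NMO_Br_mono replicate 2, however, Cldn5, Flt1 and Kdr were at 0 too. There Pecam1 was at 82.6 CPM, against 86.1 in NMO_Bl_mono replicate 1. Flt1 alone was at 554 CPM in NMO_Br_mono replicate 3. The part of these cells in the values below was not tested.

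Immediate-early genes are known for short regulatory sites near their start. RefSeq promoters, from 250 bases before to 50 after a start site, were matched for 8 of the 10 genes, all but Egr1 and Ier2. Sites outside this window were not searched, so a motif not found here may lie farther away. The letters TGACG, the core of the site that CREB and ATF proteins bind, were searched on both strands and stood in 5 of these 8 promoters, against 20.81% of 32851 promoters of the same length. The complete palindrome TGACGTCA, which holds TGACG on each strand, was in 1 of the 8 and in 1.79% of all. The CArG box, bound by serum response factor, was in 1 of the 8 and in 1.63% of all, and the EGR site (GCGGGGGCG or GCGTGGGCG) in 2 of the 8 and in 3.47% of all. All motifs but TATAAA, read on the gene's strand, were searched on both strands. TATAAA was in 2 of the 8 and 8.32% of all, the NF-kB site in 2 of the 8 and 4.51% of all, and the AP-1 site (TGACTCA or TGAGTCA) in none of the 8 and 5.2% of all. These are matches of letters and no evidence of binding. The stretches below, from GRCm38.p6 and read 5′ to 3′ on the gene's strand, show the matches of 3 genes with different roles. Capitals mark 2 copies of TGACG and TATAAA in Fos, TGACG and TGACGTCA in Dusp1, and the EGR site and then the CArG box in Zfp36.
Fos, chr12:85473746-85473877, plus strand: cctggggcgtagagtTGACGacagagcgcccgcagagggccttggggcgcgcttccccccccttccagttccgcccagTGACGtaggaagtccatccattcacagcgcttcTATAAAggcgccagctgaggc
Dusp1, chr17:26508593-26508678, minus strand: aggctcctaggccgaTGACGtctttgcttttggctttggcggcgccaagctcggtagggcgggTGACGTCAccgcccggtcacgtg
Zfp36, chr7:28379262-28379348, minus strand: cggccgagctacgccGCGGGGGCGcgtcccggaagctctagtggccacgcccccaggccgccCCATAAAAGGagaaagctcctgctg

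AU-rich elements, a mark of short-lived messages, lie at the other end of a gene. The 3′ UTR of 9 of the 10 genes held at least 1 ATTTA, the core of an AU-rich element, against 70.6% of 9410 tested genes with a 3′ UTR in the GENCODE annotation. The longer TATTTAT was in 7 of the 10 and in 30.6% of those genes, and the full nonamer TTATTTATT, the preferred site of Zfp36, in Fos, Dusp1 and Zfp36 and in 8.3% of those genes. The median density was 2.88 ATTTA per kb for the 10 and 1.34 per kb over all. Ier2 was the gene without ATTTA, and Fosb had 1 in 2302 bases. The 3′ libraries count reads near this end of a message. Windows of 30 bases from the 3′ UTRs show the AU-rich cores of 4 genes, with ATTTA and its overlapping copies in capitals.
Fos, bases 643 to 672 of 815: tgtgttttcaATTTATTTAttaagatggat
Dusp1, bases 94 to 123 of 690: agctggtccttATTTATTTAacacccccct
Zfp36, bases 571 to 600 of 774: cctttATTTAtgacgactttATTTAttgta
Jun, bases 1031 to 1060 of 1233: atcATTTAtaatcataggaaagATTTAgta

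Values below are CPM, the reads of a gene in proportion to the TMM-scaled size of its library, given for replicates 1, 2 and 3 of a group in turn, where normal blood is Nor_Bl_mono, NMO blood is NMO_Bl_mono and brain is NMO_Br_mono. A count of 3 in a library corresponded to between 0.273 and 0.432 CPM. In pooled cells a change in the share of a cell type and a change in RNA per cell cannot be told apart.

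Fos proteins do not pair with each other and act together with Jun proteins. Fos (chr12:85473890-85477273, plus strand, 4 exons) was at 1157, 319.6 and 260.0 CPM in normal blood, at 721, 179 and 74.9 in NMO blood and at 495, 417 and 709 in brain. Replicate 1 of each blood group was the highest of its group and the 3 brain libraries lay within the range of the blood. Fosb (chr7:19302696-19310051, minus strand, 4 exons), its close homologue, was at 1287, 84.3 and 45.0 CPM in normal blood, 749, 207 and 67.8 in NMO blood, and 160.1, 149.7 and 185 in brain. It had the widest range of the 10 in normal blood, 28.6-fold between the highest and the lowest library, and the narrowest in brain, 1.23-fold. With CPM from library sizes alone its range in brain was not the narrowest. There Fosb was at 136, 161 and 195 CPM, and Zfp36 at 325, 308 and 399.

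Among the Jun proteins, Jun is the strong activator of the family. Jun (chr4:95049034-95052222, minus strand, 1 exon) was at 1558, 252 and 108 CPM in normal blood, 1141.5, 354 and 83.99 in NMO blood, and 1524, 1158 and 929 in brain. Brain libraries were above replicates 2 and 3 of both blood groups, but replicate 1 of each blood group lay within or above them. Junb (chr8:84974484-84978718, minus strand, 1 exon), which often opposes Jun, was at 1904, 1308 and 726 CPM in normal blood, 1468, 1451 and 657 in NMO blood and 758, 761 and 1025 in brain. Jund (chr8:70698949-70700616, plus strand, 1 exon), the member that many resting cells already express, was at 834, 324 and 141 CPM in normal blood, 739, 461 and 227 in NMO blood and 401, 239 and 176 in brain. For Junb and Jund the lowest mean of the 3 groups was in brain, and the groups overlapped.

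Atf3 (chr1:191170296-191218039, minus strand, 4 exons) dampens inflammatory genes in macrophages. It was at 834, 236 and 98.5 CPM in normal blood, 466, 226 and 0 in NMO blood, and 372, 726 and 649 in brain. The 0 was in NMO_Bl_mono replicate 3, the library with the fewest genes. Egr1, which drives macrophage genes after MAP kinase signals, was at 335, 261 and 104 CPM in normal blood, 240.2, 166 and 68.0 in NMO blood, and 83.0, 489.8 and 86.0 in brain. It was the only one of the 10 with 1 brain library far from the other brain libraries, 5.90-fold above the lowest. Ier2 (chr8:84661331-84662852, minus strand, 1 exon) was at 297, 143 and 52.8 CPM in normal blood, 232, 148 and 54.4 in NMO blood, and 131, 88.6 and 118 in brain, and the brain values lay between the blood extremes.

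The feedback genes followed. Dusp1 (chr17:26505590-26562128, minus strand, 4 exons) was at 1039.6, 325 and 227 CPM in normal blood, 589, 498 and 151 in NMO blood, and 635, 731 and 914 in brain. All 3 brain libraries were above all 3 blood libraries of NMO mice, and normal blood replicate 1 was above them all. Zfp36 (chr7:28376784-28380253, minus strand, 2 exons) was at 731, 229.8 and 193 CPM in normal blood, 389, 279.7 and 1.82 in NMO blood, and 383, 285 and 379 in brain. Its brain values fell among those of blood, and the lowest value was again NMO_Bl_mono replicate 3. Annotated genes on the opposite strand overlap Jun, Junb, Jund, Zfp36, Dusp1 and Atf3 (Junos, Prdx2, Gm11175, Gm44710, Ergic1 with Gm8225, and Gm24748 in that order). A use of strand in the counting is not stated, so reads within the overlapping stretches cannot be told apart. On the same strand, AC122252.1 and AC122252.4 overlap Dusp1 by 1853 and 227 bases. All these overlaps were taken over the whole GENCODE span of a gene. The RefSeq promoter stretches printed for Dusp1 and Zfp36 lie inside those spans rather than before them. Whether reads fell within any of these overlaps was not examined.

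**Figure D1:**
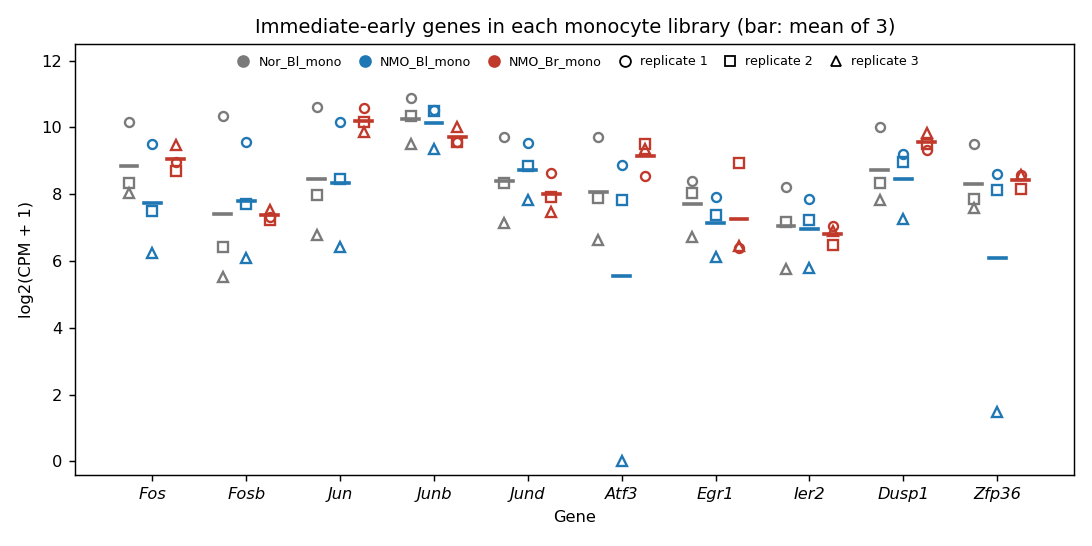
Level of each immediate-early gene, as log2(CPM + 1) on the vertical axis, in the 9 libraries; symbols are single libraries, colours are groups and bars are group means. The brain libraries lie closer together than those of either blood group for every gene but Egr1. On this scale the circles and triangles of the blood groups mark replicate 1 as the highest and replicate 3 as the lowest for all 10 genes.

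In TMM-scaled CPM the blood libraries differed from each other in the same way for every gene. In Nor_Bl_mono replicate 1 was the highest library for 10 of 10 genes and replicate 3 the lowest for 10 of 10, and the same held in NMO_Bl_mono. The TMM factors of replicates 1, 2 and 3 were 0.80, 0.96 and 1.07 in normal blood and 0.83, 1.01 and 1.46 in NMO blood. With library sizes alone, NMO_Bl_mono replicate 2 was above replicate 1 for Junb (1459 and 1214 CPM) and Dusp1 (501 and 487). Without Rn45s it was above replicate 1 for Junb (2125 and 2101 CPM). Over all genes tested, replicate 1 was the highest of the normal blood libraries for 38.3% and of the NMO blood libraries for 42.0%, and replicate 3 the lowest for 43.8% and 66.3%. In brain no library took this place, with replicates 1, 2 and 3 the highest for 4, 2 and 4 genes. The 10 genes varied together, so these counts are not 10 independent observations. Over the 9 libraries the correlation of log2(CPM + 1) was positive for all 45 pairs of the genes, with a median r of 0.66 and a range from 0.35 to 0.98. Without NMO_Bl_mono replicate 3 all 45 were positive again, with a median of 0.69 and a range from 0.17 to 0.95. The pairs share libraries and depth, and no test was made of these correlations.

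The 10 genes summed to 4941, 5046 and 5170 CPM in the brain libraries, to 6733, 3969 and 1385 in blood of NMO mice and to 9976, 3482 and 1956 in blood of normal mice. The blood groups thus spanned more than the brain group on either side, and after TMM scaling the brain libraries nearly coincided. As a share of all counts the 10 genes took 0.419%, 0.544% and 0.545% in brain. These shares were 0.557%, 0.399% and 0.201% in NMO blood and 0.795%, 0.334% and 0.209% in normal blood. Without TMM scaling the brain libraries thus lay less close, and the blood groups still spanned more on either side. Other measures moved with the sums in blood: the genes with a count were 10669, 9541 and 7495 in normal blood and 11556, 10158 and 4567 in NMO blood, and the share of Rn45s was 43.6%, 35.1% and 32.2%, and 42.2%, 31.3% and 28.4%. The 6 platelet markers also summed highest in replicate 1 and lowest in replicate 3 of each blood group, to 2882, 537 and 449 CPM in normal blood and 2315, 814 and 630 in NMO blood. In brain, where the platelet markers summed to at most 39.8 CPM, the genes with a count were 9875, 6473 and 8403 and the share of Rn45s was 39.3%, 29.9% and 32.7%, and the sums did not follow that order. The part of these measures in the sums was not tested.

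**Figure D2:**
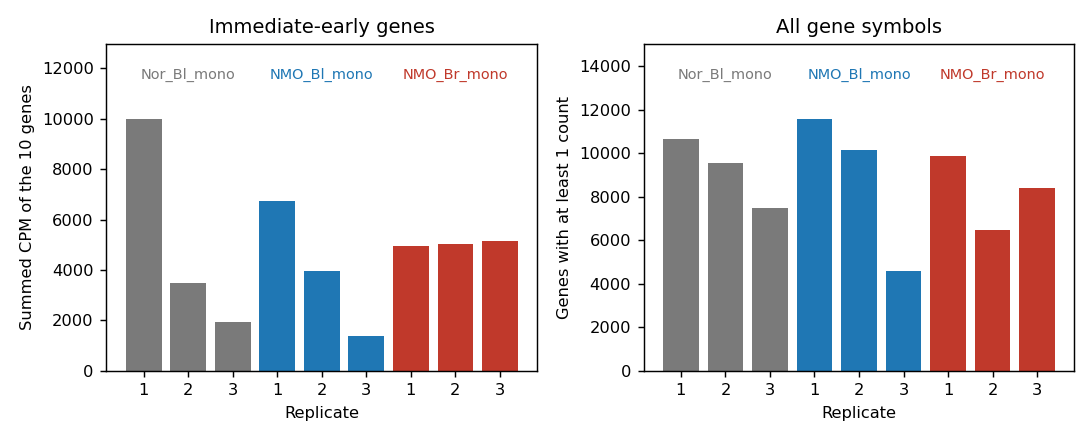
Summed CPM of the 10 immediate-early genes (left) and number of gene symbols with at least 1 count (right) for replicates 1, 2 and 3 of each group; bars are single libraries. The sums run from 1385 to 9976 CPM in blood and from 4941 to 5170 CPM in brain, while the number of genes differs between libraries in all 3 groups.

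The spread between libraries also differed between brain and blood. The SD of log2(CPM + 1) over the 3 libraries of a group was smallest in NMO_Br_mono for 9 of the 10 genes, as was so for 29.8% of all genes tested and for 29.4% of the 898 genes with a mean CPM within the range of the 10. Fosb had an SD of 0.15 in brain, 1.72 in NMO blood and 2.56 in normal blood. For Jun the SDs were 0.36, 1.88 and 1.96, and for Junb 0.25, 0.66 and 0.70. Egr1 was the exception, with an SD of 1.46 in brain, 0.93 in NMO blood and 0.88 in normal blood. This measure was chosen after its values were seen, it rests on 3 libraries a group, and no test of it was made.

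Brain and blood monocytes of NMO mice were compared first, the comparison that asks what differs in the monocytes sorted from brain. Of the 10 genes, 0 passed edgeR's quasi-likelihood test at an adjusted p under 0.05, as did 0.247% of all genes, and 0 passed an unadjusted p under 0.05 with a fold change of 1.2, as did 5.32% of all genes. The median log2 fold change of the 10 was 0.56, against 0.05 over all genes, with 6 of the 10 positive. Single libraries moved this median: it was 0.0987 without NMO_Bl_mono replicate 3 and 1.07 without NMO_Bl_mono replicate 1, the lowest and highest values with 1 library left out. The largest fitted values were 1.34 ± 1.39 (SE, n = 3 against 3) for Atf3, 1.19 ± 0.88 for Jun, 0.88 ± 0.58 for Dusp1, 0.73 ± 0.73 for Fos, 0.64 ± 1.04 for Zfp36 and 0.48 ± 0.76 for Egr1. The negative ones were -1.05 ± 1.03 for Fosb, -0.80 ± 0.62 for Jund, -0.49 ± 0.39 for Junb and -0.36 ± 0.74 for Ier2, and the adjusted p from edgeR was 1 for all 10.

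These intervals were wide. The 95% interval of the log2 fold change ran from -0.69 to 3.07 for Jun, from -0.36 to 2.13 for Dusp1 and from -1.34 to 0.35 for Junb, so the fit left room for a higher level of Jun or Dusp1 in brain of several fold, and for none. The median SE of the 10 was 0.75, and that of all genes 2.29. Dusp1 was the only one of the 10 whose groups did not overlap, 1 of 10 where 12.3% of all genes did not overlap and 6.3% did so with brain higher. With CPM from library sizes alone, Jun was higher in all 3 brain libraries too. Leaving out NMO_Bl_mono replicate 3 or NMO_Bl_mono replicate 1 gave the lowest and highest fitted values of Atf3 (0.76 and 2.36), Jun (0.70 and 2.46), Dusp1 (0.50 and 1.23), Fos (0.28 and 2.09) and Zfp36 (0.0743 and 1.31). Single libraries also set 3 of the directions: without NMO_Br_mono replicate 2 the value of Egr1 was -0.89, and without NMO_Bl_mono replicate 1 those of Fosb and Ier2 were 0.26 and 0.15.

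**Figure D3:**
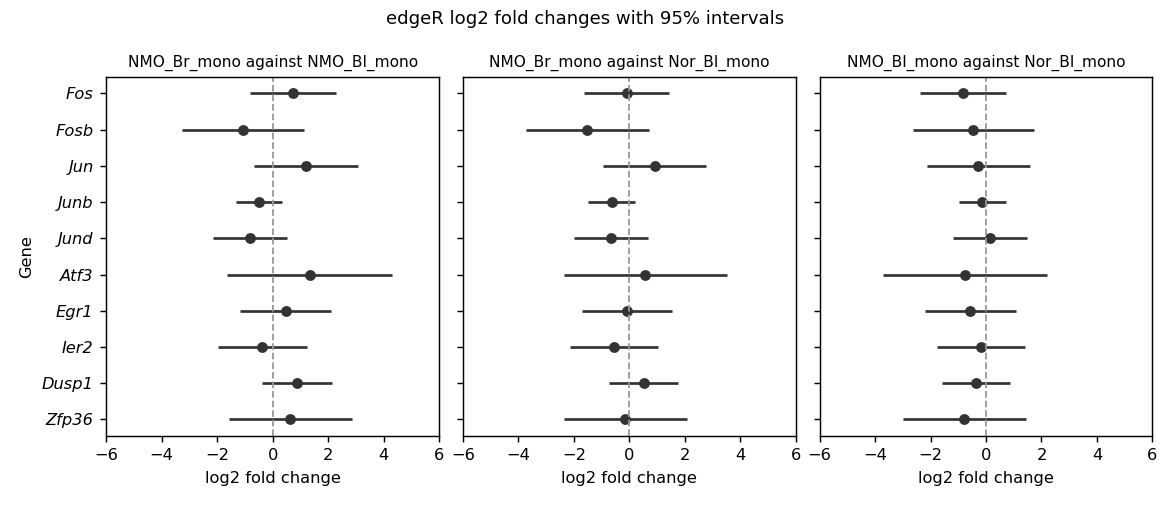
Fitted log2 fold changes of the 10 genes (points) with 95% intervals (lines) in the 3 pairwise comparisons, from edgeR's quasi-likelihood fit of 9 libraries; the dashed line marks no difference. Every interval includes 0, and those of Atf3, Fosb and Zfp36 are the widest in each panel.

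Blood monocytes of NMO mice and of normal mice were compared to ask what the injection of the brain changed in the circulation. Again 0 of the 10 genes were called, where edgeR called 0% of all genes after adjustment, DESeq2 called 69 of them, and 0.712% passed the unadjusted threshold, and 0 of the 10 passed that threshold. The groups overlapped for all 10, while 6.8% of all genes did not overlap. The log2 fold change was negative for 9 of the 10, with a median of -0.41 against -0.16 over all genes. That median was -1.22 without NMO_Bl_mono replicate 1, and positive at 0.52 without Nor_Bl_mono replicate 1 and at 0.0310 without NMO_Bl_mono replicate 3. The lowest was -0.83 ± 0.73 (SE, n = 3 against 3) for Fos, followed by -0.78 ± 1.04 for Zfp36 and -0.76 ± 1.37 for Atf3, and Jund was at 0.14 ± 0.62. For 8 of the 9 genes the direction rested on Nor_Bl_mono replicate 1, the library with the highest sum: without it the log2 fold changes of Atf3, Dusp1, Fos, Fosb, Ier2, Jun, Junb and Zfp36 became 0.47, 0.58, 0.17, 2.40, 0.57, 1.55, 0.23 and 0.08. Without NMO_Bl_mono replicate 3 those of Dusp1, Fosb, Ier2, Jun and Junb became 0.04, 0.02, 0.21, 0.23 and 0.16. Jund became negative without Nor_Bl_mono replicate 2, without Nor_Bl_mono replicate 3 or without NMO_Bl_mono replicate 1, at -0.04, -0.28 and -0.33.

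Brain monocytes of NMO mice were also set against normal blood, which shares NMO_Br_mono with the first comparison. None of the 10 genes was called, where 0.247% of all genes were, none passed the unadjusted threshold, where 5.82% did, and none had groups without overlap, where 15.4% had. The median log2 fold change of the 10 was -0.12, as over all genes, but it ran from -0.44 without Nor_Bl_mono replicate 3 to 0.81 without Nor_Bl_mono replicate 1. The fitted value was positive for 3 genes: Jun at 0.91 ± 0.87 (SE, n = 3 against 3), Atf3 at 0.58 ± 1.37 and Dusp1 at 0.52 ± 0.58. The lowest was Fosb at -1.52 ± 1.04, and Junb at -0.63 ± 0.39 had the smallest edgeR adjusted p, 0.917. Without Nor_Bl_mono replicate 1 the values of Fosb, Fos, Zfp36, Egr1, Jund and Ier2 turned positive, at 1.35, 0.90, 0.72, 0.27, 0.22 and 0.20. Scaling also turned some of these: with RLE factors Egr1 was at 0.06 and Fos at 0.02. With library sizes alone Egr1, Fos and Zfp36 were at 0.14, 0.11 and 0.0382.

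With both blood groups as the reference, 0 of the 10 genes were called by edgeR where 0.435% of all genes were, and 0 passed the unadjusted threshold where 6.89% did. The median log2 fold change was 0.22, against 0.01 over all genes, and with 1 library left out it ran from -0.000587 (without NMO_Bl_mono replicate 3) to 0.53 (without Nor_Bl_mono replicate 1). Jun was at 1.05 ± 0.73 (SE, n = 3 against 6), with an adjusted p of 0.898, and Fosb at -1.28 ± 0.93. In a two-sided exact permutation test of log2(CPM + 1), over the 84 ways to choose 3 of 9 libraries, the unadjusted p of the 10 genes ran from 0.167 for Dusp1 and 0.179 for Jun to 0.869 for Fosb. An exact p under 0.05 before adjustment was reached by 9.52% of all genes, or 962, and after adjustment by 0; the smallest this exact test can give is 0.0119.

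Ratios between 2 of the genes do not depend on how a library is scaled, and describe the balance within a library rather than which gene is higher; 1 count was added to each gene. Jun over Jund was 3.80, 4.83 and 5.26 in the 3 brain libraries, and in blood it was 1.87, 0.778 and 0.765 in normal blood and 1.55, 0.768 and 0.371 in NMO blood. All 3 brain libraries were thus above all 6 blood libraries. Fosb over Jun was 0.105, 0.129 and 0.199 in brain, and 0.826, 0.335 and 0.416 in normal blood and 0.656, 0.585 and 0.808 in NMO blood. Junb over Dusp1 was 1.19, 1.04 and 1.12 in brain and between 1.83 and 4.35 in blood. Of the 45 pairs of the 10 genes, 8 had ratios that did not overlap between brain and all blood libraries, and Jun was higher in brain in the 4 of them that held it. Of all pairs of tested genes 7.37% did not overlap, and of the pairs of genes with a mean CPM within the range of the 10, 21.4%. The share among the 10, 17.8%, was below the latter, so the separation of ratios was no more frequent for immediate-early genes than for other genes as abundant. The ratios were chosen after their values were seen and were not tested.

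Genes that lie around the immediate-early response were taken from 7 lists, and none of them held a gene called by edgeR at an adjusted p under 0.05 between brain and blood monocytes of NMO mice. The counts below stand beside these shares of all genes tested: 1.48% passed the unadjusted threshold higher in brain and 3.84% lower, and 6.3% had no overlap with brain higher and 6.05% with brain lower. Of AP-1 relatives, 12 of 13 were tested, with a median log2 fold change of 0.24. Fosl2, a Fos relative, had a log2 fold change of 1.01 ± 0.65 (SE, n = 3 against 3), and Batf3 was at 0 in the 3 brain libraries and in NMO_Bl_mono replicates 2 and 3.

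Of 20 other immediate-early genes, 1 passed the unadjusted threshold higher and 2 lower, with a median of 0.03. Ier3, an early gene of survival signals, was at 369.7, 157 and 294 CPM in brain and 126, 86.1 and 37.1 in NMO blood. Btg1, an antiproliferative gene, was at 682, 873 and 569 CPM in brain and 1375, 1174 and 872 in NMO blood, a fitted difference of -0.69 ± 0.32 (SE, n = 3 against 3) on the log2 scale. Egr3, a relative of Egr1, was at 0 in all 3 brain libraries, at 5.18, 3.70 and 56.9 CPM in NMO blood and at 19.0, 0 and 0 in normal blood. Ier3 and Egr3 did not overlap between brain and NMO blood. Btg1 overlapped only through 872.8 CPM in brain replicate 2 and 872.5 in NMO_Bl_mono replicate 3, and was lower in brain without overlap with library sizes alone or without Rn45s.

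Of 8 MAP kinase phosphatases 6 were tested, and 1 passed the unadjusted threshold, lower, with a median of -0.96. It was Dusp2, a nuclear phosphatase of activated leukocytes, at 144, 277 and 156 CPM in brain, 653, 957 and 389 in NMO blood and 733, 792 and 673 in normal blood. Dusp6, which acts on ERK, ran the other way at 269, 139.7 and 119.99 CPM in brain and 85.0, 51.9 and 3.55 in NMO blood. Dusp1, Dusp2 and Dusp6 were all without overlap between brain and blood of NMO mice, Dusp2 lower and the others higher. Dusp16, the third named of the list, was at 12.2, 0 and 20.7 CPM in brain and 33.2, 53.2 and 0 in NMO blood.

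Of 12 relatives and known AU-rich targets of Zfp36, 10 were tested, 2 passed the unadjusted threshold, higher, and the median was -0.25. Ccl2, a chemokine that recruits monocytes, was at 485, 474 and 483 CPM in brain, 8.12, 8.60 and 0 in NMO blood and 29.3, 15.9 and 71.6 in normal blood. Its edgeR adjusted p was 0.0848 against NMO_Bl_mono and 0.0347 against both blood groups. Zfp36l1, a homologue of Zfp36, was at 335, 546 and 369.7 CPM in brain and 186, 235 and 31.8 in NMO blood, while Il6 was at 0 in all 3 brain libraries and at most 17.4 CPM in NMO blood. Brain was thus above NMO blood in every library for Ccl2 and Zfp36l1. They were 2 of the 3 genes of this list without overlap, all higher in brain.

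Of 9 NF-kB feedback genes all were tested, and 3 passed the unadjusted threshold, lower, with a median of -0.31. Nfkbia, the inhibitor that holds NF-kB in the cytoplasm, was at 1656, 3124 and 1783 CPM in brain, 9081, 8252 and 1417 in NMO blood and 9311, 8189 and 1737 in normal blood. Tnfaip3, a ubiquitin-editing inhibitor of the pathway, was at 2.60, 146 and 53.7 CPM in brain and 599, 608 and 369 in NMO blood, without overlap. Nfkbiz was at 104, 271 and 97.1 CPM in brain and 1097, 924 and 36.996 in NMO blood. For Nfkbia and Nfkbiz the low blood library was replicate 3 of each blood group, as for the 10 immediate-early genes, and brain overlapped blood through it. Of 20 upstream kinases and factors 19 were tested, and 1 passed the unadjusted threshold, lower, with a median of 0.30. It was Elk4, at 0 in all brain libraries and at 8.12, 17.1 and 53.0 CPM in NMO blood, and Map2k3 and Mapk14 had log2 fold changes of -1.17 ± 0.73 (SE, n = 3 against 3) and -1.54 ± 1.21.

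Heat-shock genes had the most genes without overlap of the 7 lists. All 11 were tested, 5 passed the unadjusted threshold, higher in brain, 7 had no overlap with NMO_Bl_mono, and the median log2 fold change was 1.01. Hspa1a, an inducible chaperone of stressed cells, was at 4112, 1051 and 566 CPM in brain, 15.5, 10.3 and 0 in NMO blood and 51.6, 22.6 and 0 in normal blood. Its edgeR adjusted p was 0.242 against NMO_Bl_mono and 0.0438 against both blood groups. Hspa1b, its near-identical copy, was at 4239, 1051 and 380 CPM in brain and at most 34.7 in blood, and since reads with multiple alignments were counted the reads of the pair cannot be told apart. Hsp90aa1 was at 1115, 589 and 534 CPM in brain and 294, 202 and 179.7 in NMO blood. Brain replicate 1 was the highest library for these 3 chaperones.

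**Figure D4:**
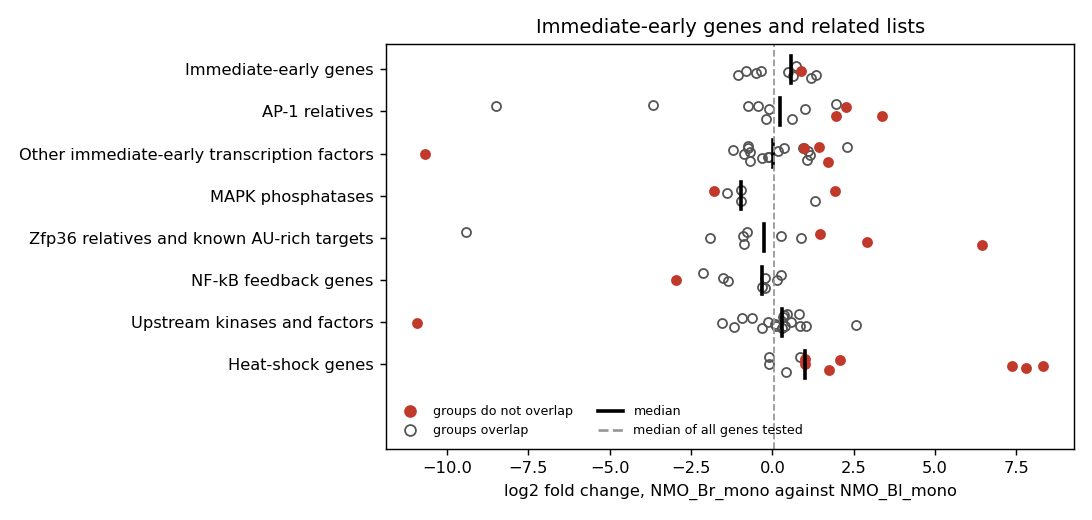
Log2 fold changes between NMO_Br_mono and NMO_Bl_mono (horizontal axis) of the 10 immediate-early genes and of the tested genes of 7 related lists; filled points are genes whose groups do not overlap, black bars are list medians and the dashed line is the median of all genes, 0.05. The 10 genes lie between -1.05 and 1.34, and the points below -5 are Batf3, Egr3, Il6 and Elk4, which are at 0 in all 3 brain libraries and whose fitted values depend on the prior count.

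Outside these lists, the genes most like the 10 over the 9 libraries, by Pearson's r with their mean log2(CPM + 1), were Nrf1 (r 0.96, Spearman's rho 0.90), Mfap1b (0.94 and 0.75), Rn4.5s (0.94 and 0.72), Pecam1 (0.94 and 0.87) and Rgcc (0.93 and 0.70). Without the 2 libraries farthest from the median, replicate 3 of each blood group, their r was between 0.57 and 0.86. With a pseudocount of 5 in place of 1, 3 of the 5 stayed and Prr5l and Itsn1 entered. These are the highest values among the genes tested, given as a description.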

How the data were processed

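The data were read counts per gene symbol of 9 QuantSeq 3′ libraries (single-end) from sorted monocytes. The authors aligned reads with Bowtie2 and took counts from both unique and multiple alignments (bedtools coverage); the submitters' processing notes name mm10, and tool versions are not given in the sources used here. The deposited values are raw counts in each library, before the authors' TMM and CPM scaling. Of 23282 entries, 35 symbols were repeated, and of these the entry of highest count stayed.

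From these counts, edgeR 4.0.16 (R 4.3.3) with filterByExpr, TMM factors and a single quasi-likelihood fit of the 9 libraries (glmQLFit, glmQLFTest) tested 10107 genes, with Benjamini-Hochberg adjustment over all of them. Calls required an adjusted p below 0.05; the study's threshold, an unadjusted p under 0.05 with a fold change of 1.2, was counted separately. SEs come from the F statistic, and intervals are at 95%. An exact permutation test on log2(CPM + 1) compared brain with both blood groups. The scripts were tested on simulated data with a smaller spread between libraries than here, where the fitted common dispersion was 2.87. That check therefore does not show what size of change these libraries could reveal. Each library is a pool, whether blood and brain pools of NMO mice came from the same animals is not stated, and p-values measure the spread between pools. Gene positions and 3′ UTRs come from GENCODE (GRCm38), promoters from RefSeq GRCm38.p6, and gene names needed no matching beyond the symbol.

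The 10 genes and the lists were chosen with earlier results of these data known. Named were all 10 genes, from each related list the 3 genes of smallest p between brain and blood of NMO mice, any related gene with an adjusted p under 0.05 in a pairwise comparison, and the 5 genes most like the 10. Alternatives were RLE factors, library sizes alone, no Rn45s, other filters, the replicate number as a block, fits to the compared groups alone, each library left out, a robust fit, DESeq2 1.42.0, and limma 3.58.1 with voom quality weights or on log2(CPM + 1). Microglia libraries were not analysed here. The result of 1 related gene that the rule would name is not reported here.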

Additional observations from a re-analysis of the deposited data

How the results depend on the processing

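None of the 10 genes was called at an adjusted p under 0.05 in any of the 4 comparisons under any alternative run; the smallest adjusted p was 0.0581, for Jun against both blood groups with no filter, where 1.25% of all genes were called. How many of the 10 passed the unadjusted threshold, 0 as reported, did change. With no filter 3 passed against NMO_Bl_mono, 3 against Nor_Bl_mono and 4 against both, as did 4.85%, 4.85% and 9.69% of all genes. With limma on log2(CPM + 1) the numbers were 2, 1 and 1 (8.3%, 7.88% and 9.64% of all genes), with limma-voom and quality weights 1, 1 and 2 (12.8%, 11.7% and 13.1%), and without both libraries of fewest genes 1, 1 and 1 (6.75%, 9.61% and 9.78%), with Egr1 in each case of the last. With a library left out they ranged from 0 to 2 in the 3 brain comparisons and from 0 to 1 between the blood groups. Genes without overlap rose from 1 to 2 with CPM from library sizes alone. Against both blood groups the exact permutation test passed 0 of the 10 under each alternative.

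The replicate number did not enter the reported fit. Deviations from the group mean correlated over 0.1 for 1 of 9 same-numbered pairs (range -0.01 to 0.12). These correlations over all genes cannot decide whether libraries of 1 number share a batch, and the sources used here name none. In both blood groups replicate 1 was the highest and replicate 3 the lowest library for 10 of the 10 genes in TMM-scaled CPM. With library sizes alone, NMO_Bl_mono replicate 2 was above replicate 1 for Junb and Dusp1. Between the blood groups 6 of 6 libraries correlated best with their own number, against 3 of 6 and 2 of 6 with brain, a hint from the data and not the design. With the replicate block 3 of the 10 passed the unadjusted threshold against NMO_Bl_mono (Dusp1, Fos and Jun), 1 against Nor_Bl_mono and 2 against both, where 3.64%, 3.78% and 4.72% of all genes passed, and log2 fold changes turned to 0.0166 for Fosb against NMO_Bl_mono, 0.19 for Fosb between the blood groups, 0.44, 0.20 and 0.30 for Fos, Fosb and Zfp36 against Nor_Bl_mono, and 0.11 for Fosb against both.

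Directions of single genes, none of them called, turned as follows. Brain against NMO_Bl_mono: Egr1 was at -1.25 without both libraries of fewest genes and at -0.88 with limma-voom. With a library left out, Fosb ranged from -1.52 to 0.26, Ier2 from -0.74 to 0.15 and Egr1 from -0.89 to 0.91. Between the blood groups, Junb was at 0.0322 with library sizes alone and Fosb at 0.36 with limma on log2(CPM + 1). Without both libraries of fewest genes Dusp1, Fosb, Ier2, Jun and Junb were at 0.0391, 0.0222, 0.21, 0.23 and 0.16, and with limma-voom at 0.16, 0.76, 0.11, 0.43 and 0.0791. With a library left out the ranges were -1.79 to 0.47 for Atf3, -0.72 to 0.58 for Dusp1, -2.19 to 0.17 for Fos, -1.78 to 2.40 for Fosb, -0.70 to 0.57 for Ier2, -1.55 to 1.55 for Jun, -0.43 to 0.23 for Junb, -1.45 to 0.0814 for Zfp36 and -0.33 to 1.03 for Jund. Brain against Nor_Bl_mono: Fos was at 0.0195 with RLE factors and with DESeq2, 0.11 with library sizes alone, 0.000677 with at least 10 counts in every library, 0.0739 without both libraries of fewest genes, 0.20 with limma-voom and 0.20 with limma on log2(CPM + 1). Egr1 was at 0.0649 with RLE factors and with DESeq2 and 0.14 with library sizes alone, and Zfp36 at 0.0382 with library sizes alone, 0.00361 without both libraries of fewest genes, 0.0774 with limma-voom and 0.12 with limma on log2(CPM + 1). With a library left out the ranges were -1.45 to 0.31 for Egr1, -0.44 to 0.90 for Fos, -2.04 to 1.35 for Fosb, -0.95 to 0.20 for Ier2, -1.07 to 0.22 for Jund and -0.44 to 0.72 for Zfp36. Against both blood groups Egr1 was at -1.35 without both libraries of fewest genes, -1.08 with limma-voom and -0.17 with limma on log2(CPM + 1), and with a library left out the ranges were -1.54 to 0.15 for Fosb, -0.0250 to 0.68 for Zfp36 and -1.17 to 0.59 for Egr1. The cause of these changes was not tested.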
